A study of Mus musculus with 4 samples.

Results

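Transcripts of 9 transcription factor genes, Tox, Ikzf2, Tbx21, Eomes, Id2, Prdm1, Zeb2, Runx3 and Bhlhe40, were followed in CD8+ PD-1+ CD44+ T cells sorted from tumor-draining lymph nodes. The 9 were picked by symbol from the gene list of the 4 single-cell libraries, where each symbol matched 1 gene. Mice were female C57BL/6, bought at 6 weeks of age, and carried B16F10GP flank tumors. B16F10GP is a melanoma line made by lentiviral transduction with the glycoprotein of lymphocytic choriomeningitis virus, a model antigen, and established by cell sorting. Control mice bore tumors without treatment. The other groups were given tumor irradiation (RT), a PD-L1 antibody (αPD-L1) or the combination (RT + αPD-L1) and were sampled on day 7. Each treatment was 1 library that pooled cells of 5 mice marked with hashtag antibodies, so treatment and library cannot be told apart.

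These factors are tied to effector, memory, exhausted and other T cell states. T-bet (Tbx21) and Eomesodermin (Eomes) are T-box factors that turn on cytotoxic and memory genes, and RUNX3 works with them to open those genes and to hold the CD8 lineage. ID2 frees effector genes by binding E proteins, while the repressors Blimp-1 (Prdm1) and ZEB2 close memory genes. TOX is needed for T cells to persist under chronic antigen and marks exhausted cells, Helios (Ikzf2) is an Ikaros-family factor found in regulatory, innate-like and repeatedly stimulated T cells, and BHLHE40 links antigen receptor signals to cytokine production and mitochondrial fitness. Stem-like cells of lymph nodes are recognised by TCF-1, the product of Tcf7, and a subset of them carries the interferon-inducible surface protein LY6A (Sca-1).

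After filtering, 39192 barcodes were assigned to a mouse, and 37608 remained when clusters resembling γδ T, dendritic and B cells were set aside. UMIs, the counted transcript molecules, were summed per mouse because mice are the replicates, and levels are given as CPM, a gene's UMIs per 1000000 UMIs of the mouse. RT mouse 4 was the shallowest, with 135 cells and 1156486 UMIs, and RT + αPD-L1 mouse 3 the deepest, with 4626 cells and 37833668 UMIs. Median depth per cell was 5575 to 7598 UMIs. RT + αPD-L1 mouse 3 stood apart, with the highest Ly6a level of any mouse (965 CPM) and 1148 cells in a cluster led by interferon-stimulated genes. Another assignment, by HTODemux, gave this mouse 2354 cells. Library pairs shared 158 to 234 cell barcodes. Cd8a lay between 602 and 885 CPM and Cd3e between 1000 and 1207 CPM in every mouse, while summed melanoma markers stayed at or under 1.29 CPM. Summed regulatory T cell markers, a class in which Helios is a usual marker, ranged from 187 to 320 CPM.

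The genes lie on separate chromosomes apart from Tox and Runx3, which share chromosome 4 (GRCm38, GENCODE M21). Tox spans 6686353 to 6991557 and Runx3 135120652 to 135177990 on it. Tbx21 is on chromosome 11 (97098071 to 97115331), Eomes on chromosome 9 (118478212 to 118486132), Ikzf2 on chromosome 1 (69531214 to 69687245) and Id2 on chromosome 12 (25093799 to 25097140). Prdm1 is on chromosome 10 (44437177 to 44528501), Zeb2 on chromosome 2 (44983632 to 45117395) and Bhlhe40 on chromosome 6 (108660629 to 108666925).

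The stretches 250 bases upstream of the RefSeq start sites (GRCm38.p6) of both T-box genes and of Runx3 are shown because these genes moved differently below. Capitals mark letters of the motifs searched on both strands: RUNX (TGTGGT), T-box (AGGTGTGA), GAS, bound by STATs (TTCNNNGAA), IRF (GAAA, any 2 bases, GAAA) and E-box (CACGTG). Eomes is shown at chr9:118477939-118478188 on the plus strand, Runx3 at chr4:135120395-135120644 on the plus strand for the upstream one of its 2 starts, and Tbx21 at chr11:97115332-97115581 on the minus strand.
Eomes: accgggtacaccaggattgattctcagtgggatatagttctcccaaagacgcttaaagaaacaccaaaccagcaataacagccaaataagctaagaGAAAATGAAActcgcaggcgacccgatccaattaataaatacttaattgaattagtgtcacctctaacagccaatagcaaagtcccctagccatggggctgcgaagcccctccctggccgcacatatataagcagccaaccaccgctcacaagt
Runx3: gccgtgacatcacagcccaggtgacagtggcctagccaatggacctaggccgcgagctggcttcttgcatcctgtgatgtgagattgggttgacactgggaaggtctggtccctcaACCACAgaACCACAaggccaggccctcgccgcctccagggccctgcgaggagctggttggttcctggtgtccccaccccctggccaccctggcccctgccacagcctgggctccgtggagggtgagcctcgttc
Tbx21: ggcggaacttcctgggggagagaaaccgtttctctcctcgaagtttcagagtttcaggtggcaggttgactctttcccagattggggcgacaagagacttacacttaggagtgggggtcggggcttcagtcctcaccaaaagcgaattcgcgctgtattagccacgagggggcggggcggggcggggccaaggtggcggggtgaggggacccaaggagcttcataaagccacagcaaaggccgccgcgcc

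Eomes held 1 IRF match, starting 154 bases before the start site, and Runx3 held the RUNX letters, read from the other strand, at 134 and 126 bases before its start. The Tbx21 window held none of the 5 motifs, and neither did those of Id2 and Prdm1. Zeb2 had a GAS match in 2 overlapping windows of its 4. Of 32851 promoter windows of the same length, 14% held the RUNX letters, 7.02% GAS, 6.02% the E-box, 2.98% IRF and 1.12% the T-box letters. A match describes letters only and shows no binding.

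Whether the combination moved these factors in node T cells was asked first, against Control. Tbx21, Prdm1 and Runx3 rose and Tox fell, so that 4 of 9 members passed the test against 9.03% of all 11974 genes tested (6.11% higher, 2.91% lower). The 9 were chosen with earlier results of these data known, so this count describes them and is no independent test of the set. The rises were 2.69-fold for Prdm1, 2.12-fold for Tbx21 and 1.26-fold for Runx3, and Tox fell 1.19-fold. All 4 calls were lost when RT + αPD-L1 mouse 3 was left out, where all-gene calls went from 1081 to 521, while each of the 4 kept its direction.

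**Figure D1:**
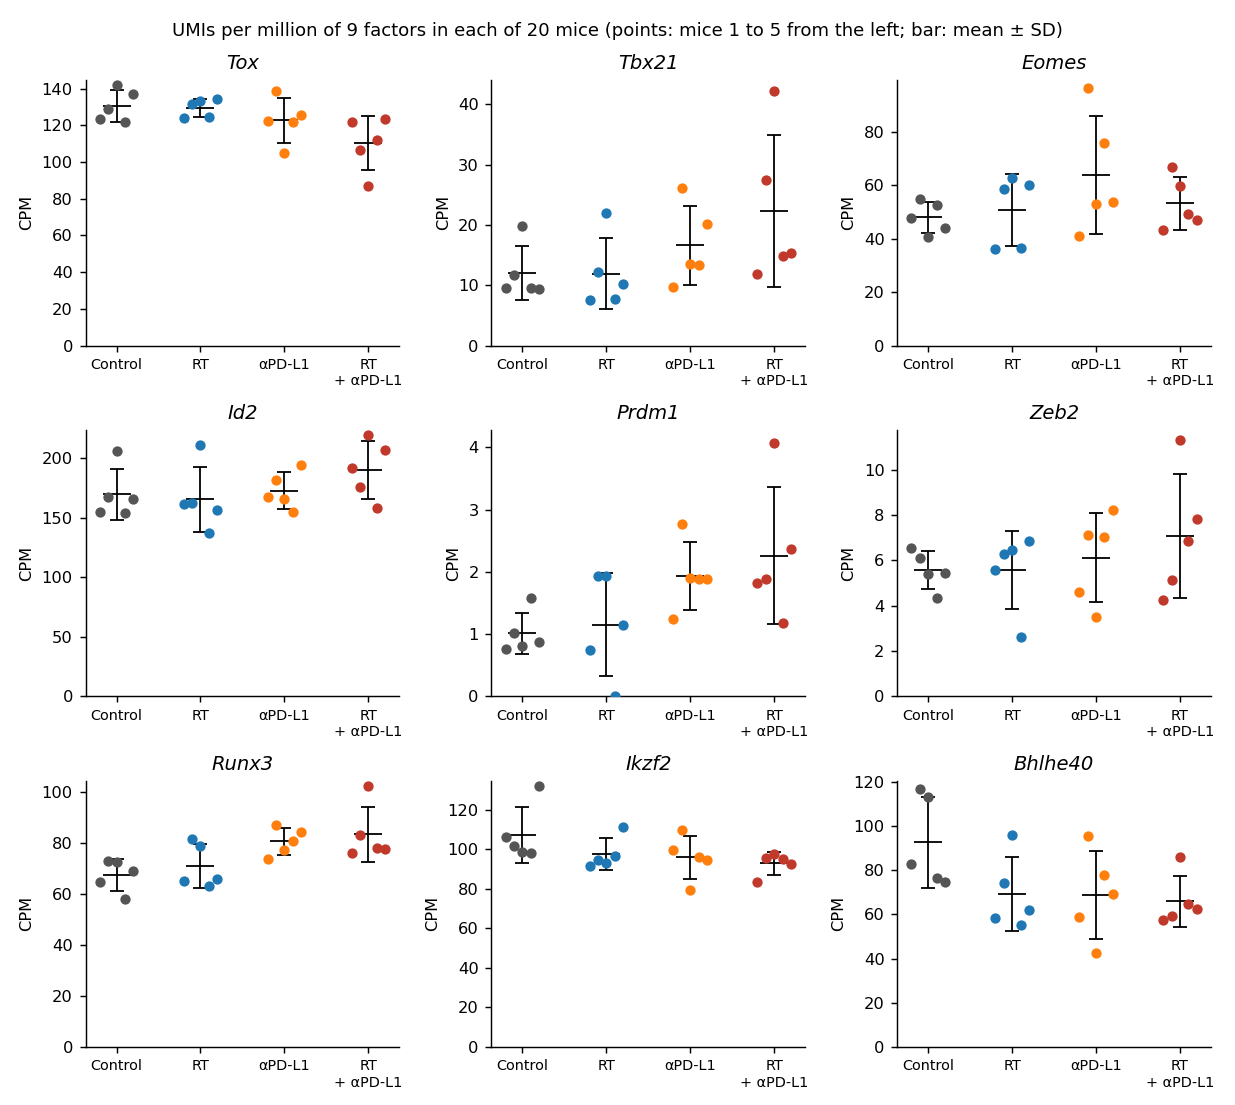
Level of each of the 9 genes in each of the 20 mice (points, CPM; each panel has its own axis starting at 0), with the mean and SD of the 5 mice of each treatment. Runx3 of RT + αPD-L1 mice lay above every Control mouse and Ikzf2 below every Control mouse, and the other 7 genes overlapped between these groups, where 5.17% of all genes tested did not overlap.

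Tox, the exhaustion factor, was at 123, 129, 142, 122 and 137 CPM in Control mice 1 to 5 and at 122, 107, 87.0, 112 and 124 CPM in RT + αPD-L1 mice 1 to 5. RT + αPD-L1 mice 2, 3 and 4 lay below every Control mouse, and the other two lay among them. The fitted log2 change was −0.25 ± 0.07 (SE, 5 against 5 mice, edgeR adjusted p = 0.0294), from a mean of 131 ± 8.81 to 110 ± 14.7 CPM (SD). It was −0.17 without mouse 3 (adjusted p = 0.0822) and −0.08 in cells with no Ly6a UMI (adjusted p = 0.433). Ly6a itself had a mean of 72.9 CPM in Control and 367 CPM in the combination, so the cells that such a filter leaves depend on the treatment, and values in cells with no Ly6a UMI, here and below, are not a test of the same cells in both groups.

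Tbx21, which encodes T-bet, was at 9.62, 11.8, 19.8, 9.51 and 9.43 CPM in Control mice and at 11.8, 27.4, 42.2, 14.8 and 15.4 CPM in RT + αPD-L1 mice. Mice 2 and 3 of the combination exceeded every Control mouse, and Control mouse 3 exceeded the other 3 combination mice. The log2 change was 1.09 ± 0.33 (edgeR adjusted p = 0.0410), and it was 0.67 without RT + αPD-L1 mouse 3 (adjusted p = 0.241). In cells with no Ly6a UMI it was 0.67 (adjusted p = 0.0537).

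Prdm1 was sparse, with 70 UMIs over all Control mice and 215 over all RT + αPD-L1 mice. Control mice had 0.758, 1.01, 0.807, 1.59 and 0.875 CPM, and RT + αPD-L1 mice had 1.82, 1.88, 4.07, 1.17 and 2.36 CPM. In the combination, 4 mice lay above every Control mouse. This repressor rose by 1.43 ± 0.33 on the log2 scale (edgeR adjusted p = 0.0105), with 0.90 left without mouse 3 (adjusted p = 0.118).

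Runx3 separated the groups completely, with 64.9, 73.2, 72.7, 58.3 and 69.1 CPM in Control mice and 76.0, 83.4, 102, 78.3 and 77.6 CPM in RT + αPD-L1 mice. Its rise was small, 0.33 ± 0.09 on the log2 scale (edgeR adjusted p = 0.0203), and was 0.23 without mouse 3 (adjusted p = 0.0802). In cells with no Ly6a UMI it was 0.25 (adjusted p = 0.0304). In summed counts, fewer cells of a kind and less RNA per cell cannot be told apart.

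The other 5 members did not pass. Ikzf2 lay at 106, 102, 98.5, 98.1 and 132 CPM in Control mice and at 83.3, 95.9, 97.5, 95.3 and 92.5 CPM in RT + αPD-L1 mice, so that all 5 combination mice were below all Control mice, yet its fitted change was −0.19 ± 0.08 (edgeR adjusted p = 0.168). Bhlhe40, at 82.7, 117, 113, 76.3 and 74.8 CPM in Control mice and at 57.3, 59.3, 86.0, 64.6 and 62.5 CPM in the combination, had 4 combination mice below every Control mouse and a change of −0.46 ± 0.18 (adjusted p = 0.122). In cells with no Ly6a UMI its change was −0.57 (adjusted p = 0.0136). Zeb2 (0.43 ± 0.22, adjusted p = 0.231), Eomes (0.19 ± 0.19, adjusted p = 0.587) and Id2 (0.18 ± 0.10, adjusted p = 0.262) had overlapping groups.

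The assignment of cells to mice and the test also bore on these calls. Tox alone passed with HTODemux (Prdm1 at an adjusted p of 0.0644, Runx3 at 0.0684 and Tbx21 at 0.13), and DESeq2 kept 3 members, without Tbx21 (adjusted p = 0.132). Other-cell markers reached higher levels in some treated mice, not only in the combination. Summed Ly49 receptor genes were 7.53 to 14.6 CPM in Control and 11.7 to 41.3 CPM in RT + αPD-L1. They were 10.3 to 17.3 CPM in RT and 9.57 to 22.3 CPM in αPD-L1. Summed NK cell markers were 6.74 to 12.0 CPM in Control and 6.86 to 28.2 CPM in RT + αPD-L1. In RT they were 7.78 to 28.5 CPM and in αPD-L1 7.93 to 14.4 CPM. The part of these markers in the members' changes was not tested.

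**Figure D2:**
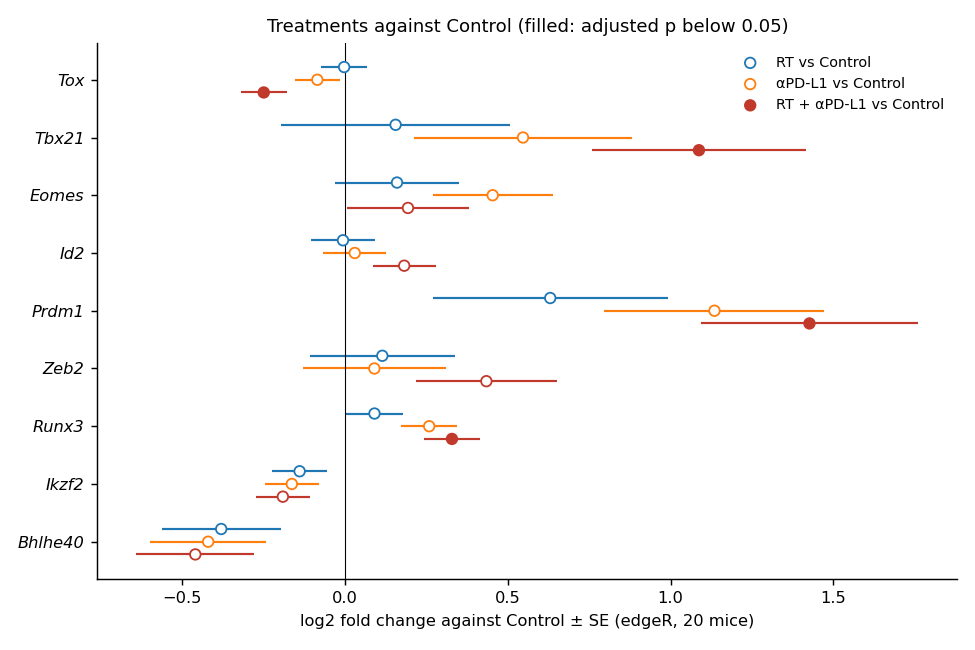
Fitted log2 fold change (x axis) of each gene (rows) against Control, with its SE, after RT, αPD-L1 and RT + αPD-L1 (5 mice per treatment); filled points passed the test at an adjusted p under 0.05. The filled points are Tox, Tbx21, Prdm1 and Runx3 of RT + αPD-L1, and the SE bars of the same gene often overlap between treatments.

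Neither treatment alone moved a member past the threshold. After RT, 0 of 9 were called against 0.0919% of all genes, and 0 had an unadjusted p under 0.05 in edgeR, as 9.88% of all genes did. Tox was at 124, 132, 133, 125 and 134 CPM in RT mice, within the Control range, and its change was −0.00 ± 0.07. Prdm1 had 0 UMIs among 1156486 in RT mouse 4, which allows up to 2.59 CPM there by counting error alone, and 0.736 to 1.94 CPM in the others. DESeq2 also called 0 members in this comparison, and gave no adjusted p for Tbx21, Prdm1 and Zeb2.

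After αPD-L1, 0 of 9 members were called against 0.484% of all genes, and 4 had an unadjusted p under 0.05, as 14.4% of all genes did. Runx3 lay at 73.8, 87.4, 77.6, 81.1 and 84.3 CPM, above every Control mouse (0.26 ± 0.09, edgeR adjusted p = 0.160), where 3.94% of all genes had groups that did not overlap. Prdm1 was at 1.24, 2.77, 1.90, 1.88 and 1.89 CPM, with 4 mice above Control (1.13 ± 0.34, adjusted p = 0.124). Both passed when αPD-L1 and Control mice were fitted alone (adjusted p = 0.0362 for Runx3 and 0.0318 for Prdm1). Eomes had a change of 0.45 ± 0.18 (adjusted p = 0.254), with αPD-L1 mouse 2 at 96.4 CPM, and Bhlhe40 of −0.42 ± 0.18 (adjusted p = 0.278).

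Adding αPD-L1 to RT gave 0 calls of 9 in edgeR, where 3.12% of all genes passed, and 4 members had an unadjusted p under 0.05, as 15.7% of all genes did. Tox came closest: every RT + αPD-L1 mouse was below every RT mouse (−0.25 ± 0.07, adjusted p = 0.0632), where 2.52% of all genes did not overlap, and DESeq2 called it (adjusted p = 0.0423). Tbx21 had 0.93 ± 0.33 (adjusted p = 0.145), Runx3 0.24 ± 0.09 (adjusted p = 0.164) and Prdm1 0.80 ± 0.32 (adjusted p = 0.201). Adding RT to αPD-L1 also gave 0 of 9 (2.41% of all genes), with Tox at −0.16 ± 0.07 (adjusted p = 0.309) as the member with an unadjusted p under 0.05 (12.8% of all genes). No member passed the test of the combination effect against both single effects added together (0 of 9, 0.977% of all genes, and 0 of 9 against 11.7% at an unadjusted p under 0.05 in edgeR). The values of Tox (−0.16 ± 0.10) and Tbx21 (0.38 ± 0.47) are examples from that test, and with SEs of this size an excess could have been missed.

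Genes that act beside or below the members gave a wider background for RT + αPD-L1 against Control, where 6.11% of all genes rose and 2.91% fell. All such lists, here and below, were chosen with earlier results of these data known. Their counts beside the shares of all genes are therefore descriptions and no independent test. Of 19 effector genes regulated by T-box factors and RUNX3, 8 rose and 0 fell, with a list median of 0.78 against −0.01 over all genes; the granule enzymes Gzmb (4.29 ± 0.84, edgeR adjusted p = 0.00330) and Gzma (3.94 ± 1.02) and the receptors Klrg1 (3.86 ± 0.94) and Klrc1 (1.58 ± 0.46) led them. Of 16 cytokine-signal genes upstream of T-bet and Blimp-1, 8 rose and 0 fell, among them the IL-12 receptor chains Il12rb2 (2.89 ± 0.58) and Il12rb1 (0.73 ± 0.21) and the IL-18 receptor chain Il18rap (0.91 ± 0.21). Without the interferon-led cluster Gzmb was 4.17 and Il12rb2 2.63, and both passed, while Il12rb1 (0.47) did not. Without RT + αPD-L1 mouse 3, which stood apart, 3 effector genes and 3 cytokine-signal genes rose. Gzmb was then 1.93 (adjusted p = 0.0122) and Il12rb2 1.35 (adjusted p = 0.0215), whereas Gzma (2.13), Klrg1 (1.85), Klrc1 (0.69), Il12rb1 (0.42) and Il18rap (0.62) did not pass (adjusted p from 0.058 to 0.326). Gzma also had no call without Control mouse 1, Klrc1 without Control mouse 1, 3, 4 or 5, and Il12rb1 without Control mouse 1, 2, 3 or 4 or RT + αPD-L1 mouse 2.

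Other lists moved less, beside the 6.11% of all genes that rose and the 2.91% that fell. Of 14 factors induced by antigen receptor signals, 2 fell, Egr3 (−0.58 ± 0.18) and Nr4a2 (−0.29 ± 0.07), and 0 rose. Among 12 receptors of exhausted T cells, Cd200 fell (−0.58 ± 0.12), whereas Havcr2, which encodes TIM-3 (1.10 ± 0.50, adjusted p = 0.188), Entpd1 (0.97 ± 0.33, adjusted p = 0.0713) and Pdcd1 (0.41 ± 0.27, adjusted p = 0.388) did not pass. Of 13 stem and memory factors, Satb1 (0.35 ± 0.10) and Ets1 (0.14 ± 0.04) rose, and of 15 tested relatives of the members, Zeb1, the partner paralog of Zeb2, rose (0.24 ± 0.06, adjusted p = 0.0203). Without RT + αPD-L1 mouse 3 the calls of Egr3 (−0.50), Satb1 (0.29), Ets1 (0.14) and Zeb1 (0.18) were lost, with adjusted p from 0.0795 to 0.148, and those of Nr4a2 (−0.25) and Cd200 (−0.52) were kept. With each of the 20 mice left out in turn, Ets1 lost its call in 14 omissions, Egr3 in 8, Satb1 in 4 and Zeb1 in 3.

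Where the factors were found was described in 14 clusters made without the 9 members and without interferon, MHC class I and Ly6 genes, so that the members could not define them. A cluster against the rest is no test, and levels below are pooled CPM over all assigned mice. Cluster 6 (2485 cells, median 1706 UMIs, led by the noncoding transcripts Gm26917 and Kcnq1ot1) had the lowest depth and stays unnamed. It held the highest levels of Tox (361), Runx3 (265), Ikzf2 (402), Bhlhe40 (307) and Prdm1 (10.9). Id2, at 103, was among the lower ones there. The part of the low depth in these levels was not tested.

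**Figure D3:**
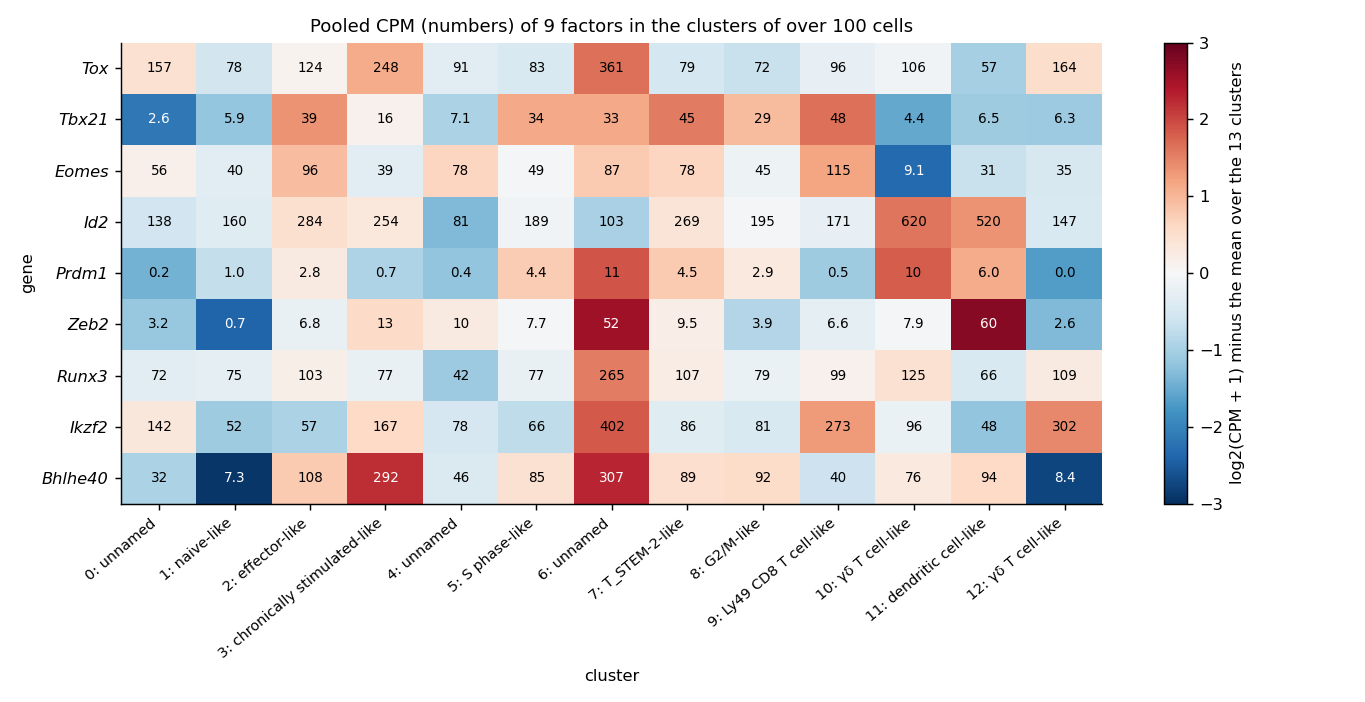
Pooled level of each gene (rows; printed numbers, CPM) in the 13 clusters of over 100 cells (columns); color is log2(CPM + 1) minus the gene's mean over these clusters. Tox and Bhlhe40 stood high in cluster 3, Tbx21 and Eomes in clusters 2, 7 and 9, and cluster 6, of lowest depth, was highest for 5 of the genes.

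Outside cluster 6, Tox and Bhlhe40 were highest in the chronically stimulated-like cluster 3 (3413 cells, led by Tnfrsf4, Nrn1, Nrgn and Cd200), at 248 and 292 CPM. Over its 19 mice with enough cells, Tox in cluster 3 was 239 ± 32.5 CPM and Bhlhe40 271 ± 45.4 CPM (SD), each above the next cluster in order by more than 1 SD. Cluster 3 held a mean of 12.5% of a mouse's assigned cells in Control (7.86 to 22.4%) and 7.02% in RT + αPD-L1 (2.96 to 10.6%). The part of these overlapping shares in the summed changes was not tested. In the naive-like cluster 1 (8088 cells, Igfbp4, Ccr9 and Klf2) Bhlhe40 was 7.29 CPM, the lowest of any cluster, and Zeb2 0.729 CPM, also the lowest. Cluster 0 (8425 cells, led by Myb and Sox4, unnamed) held Tox at 157 CPM with Tbx21 at 2.55 CPM and Prdm1 at 0.200 CPM.

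The T-box pair had another distribution. Tbx21 stood at 48.5 CPM in the Ly49 CD8 T cell-like cluster 9, 45.4 CPM in the interferon-led cluster 7 and 38.5 CPM in the effector-like cluster 2, which followed each other without a step of more than 1 SD. Of the 1533 cells of cluster 7, 1148 came from RT + αPD-L1 mouse 3, and by the mean over mice with at least 20 cells Tbx21 was 31.2 ± 17.0 CPM there (SD, 4 mice), below 34.5 ± 13.8 CPM in cluster 2. Cluster 7 held a mean of 0.223% of a mouse's assigned cells in Control (0.0826 to 0.528%) and 7.99% in RT + αPD-L1 (0.209 to 23.8%). The part of this share in the summed Tbx21 change was not tested. Pooled Eomes was highest in cluster 9 (115 CPM), followed by clusters 2 (95.9), 6 (87.2), 4 (78.5) and 7 (78.1). By the mean over mice cluster 7 led instead, at 122 ± 81.5 CPM against 117 ± 28.8 CPM in cluster 9 and 80.7 ± 31.1 CPM in cluster 2, differences within 1 SD except that between clusters 9 and 2. That lead rested on 1 mouse of a single treatment at 242 CPM. RT + αPD-L1 mice 2, 3 and 4 had 102, 70.2 and 72.9 CPM of Eomes in cluster 7. Cluster 4 (3063 cells, Srm and Xcl1) thus held much Eomes with 7.10 CPM of Tbx21. Over the 14 clusters, log2 levels of Tbx21 and Eomes had a Pearson r of 0.70 (0.68 without cluster 6), and Tox and Ikzf2 0.83 (0.77); these are descriptions over clusters that share libraries and differ in depth.

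Id2 and Prdm1 reached cells outside the αβ CD8 lineage. Id2 was highest in γδ T cell-like cluster 10 (620 CPM) and dendritic cell-like cluster 11 (520 CPM), then in clusters 2 (284), 7 (269; 226 by the mean over mice) and 3 (254; 262), and lowest among T cells in cluster 4 (81.3). Prdm1 in cluster 10 was 10.3 CPM, and in the named CD8 clusters it ran from 0.537 CPM in cluster 9 to 4.53 CPM in cluster 7. Zeb2 was 59.9 CPM in dendritic cell-like cells and 51.8 CPM in cluster 6, against 12.6 CPM or less in the other CD8 clusters. Ikzf2 was 302 CPM in γδ T cell-like cluster 12 and 273 CPM in Ly49 cluster 9, over 167 in cluster 3, 57.2 in effector-like cluster 2 and 52.1 in naive-like cluster 1.

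The gene most like each member over the 14 clusters (Pearson r of log2 levels, no test) was Cyfip2 for Runx3 (0.98), Nt5dc1 for Tox (0.96), Mapkapk2 for Zeb2 (0.95), Ccdc50 for Bhlhe40 (0.92) and Rhbdf2 for Prdm1 (0.91). For Tbx21 it was Fasl (0.89), for Ikzf2 Arhgef5 (0.89), for Id2 Ggh (0.89) and for Eomes Gm12758 (0.88). The next places were held by Abhd6 and Gzf1 for Tox, Dapk2 and Fhl2 for Tbx21, Samd3 and Gm8817 for Eomes, Glipr1 and Tmem159 for Id2, Ret and Lamc1 for Prdm1, Ptprj and Rnf216 for Zeb2, Dock2 and Mark2 for Runx3, Dnal1 and Plxdc2 for Ikzf2, and Stx11 and Endod1 for Bhlhe40.

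Within clusters, RT + αPD-L1 against Control gave 3 member calls over the 8 clusters with at least 4 mice per treatment. Most member tests there gave no call. Prdm1 was tested in cluster 5 alone (1.91 ± 0.51, edgeR adjusted p = 0.0513), and Zeb2 was not tested in clusters 1 and 8. Tox, which fell in the counts summed per mouse, passed in none of the 8. Its change ran from −0.54 ± 0.16 in cluster 5 (adjusted p = 0.0968) to 0.04 ± 0.11 in cluster 3 (adjusted p = 0.979). The background was 2.84%, 2.93%, 2.23%, 1.16%, 1.5%, 1.78%, 1.78% and 1.33% of genes called in clusters 0, 1, 2, 3, 4, 5, 6 and 8. Tbx21 rose in the effector-like cluster 2, from 25.8, 30.9, 43.3, 35.4 and 26.4 CPM in Control mice to between 25.3 and 61.3 CPM in the combination (0.76 ± 0.19, edgeR adjusted p = 0.0227; 2.23% of genes called there). Of the combination mice, 4 exceeded every Control mouse, and mouse 1 lay below them.

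Runx3 rose in the naive-like cluster 1 (0.33 ± 0.09, adjusted p = 0.0396; 2.93% of genes), from 70.8, 74.4, 59.7, 49.7 and 67.3 CPM to 53.4, 80.4, 89.4, 93.5 and 85.7 CPM. There too combination mouse 1 was the one among the Control values. Zeb2 rose in the S phase-like cluster 5 (1.77 ± 0.44, adjusted p = 0.0350; 1.78% of genes), from 3.75, 2.50, 6.66, 1.48 and 2.53 CPM to 6.86, 8.96, 20.4, 4.38 and 3.25 CPM. Without RT + αPD-L1 mouse 3 none of the 3 passed in edgeR: Tbx21 was 0.65 (adjusted p = 0.151) and Runx3 0.29 (adjusted p = 0.197), sizes near those above, while Zeb2 was 0.89 (adjusted p = 0.609).

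Tcf7+ cells with and without Ly6a transcripts were compared within mice, to ask which factors differ along the LY6A axis that the study describes. All 9 members differed between 9885 cells with a Ly6a UMI and 23157 without, over 19 mice and with mouse as a block, where 51.8% of 11406 genes did (23.8% higher and 28% lower). Ikzf2 and Tox were lower in Ly6a+ cells by 2.15-fold and 1.40-fold, Prdm1, Tbx21 and Id2 were higher by 3.11-fold, 2.54-fold and 1.35-fold, and the remaining 4 moved by 1.27-fold or less. A class cut from 1 UMI is a range of cells and no type, and Ly6a+ cells were deeper, with a median of 7720 UMIs against 6529.

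**Figure D4:**
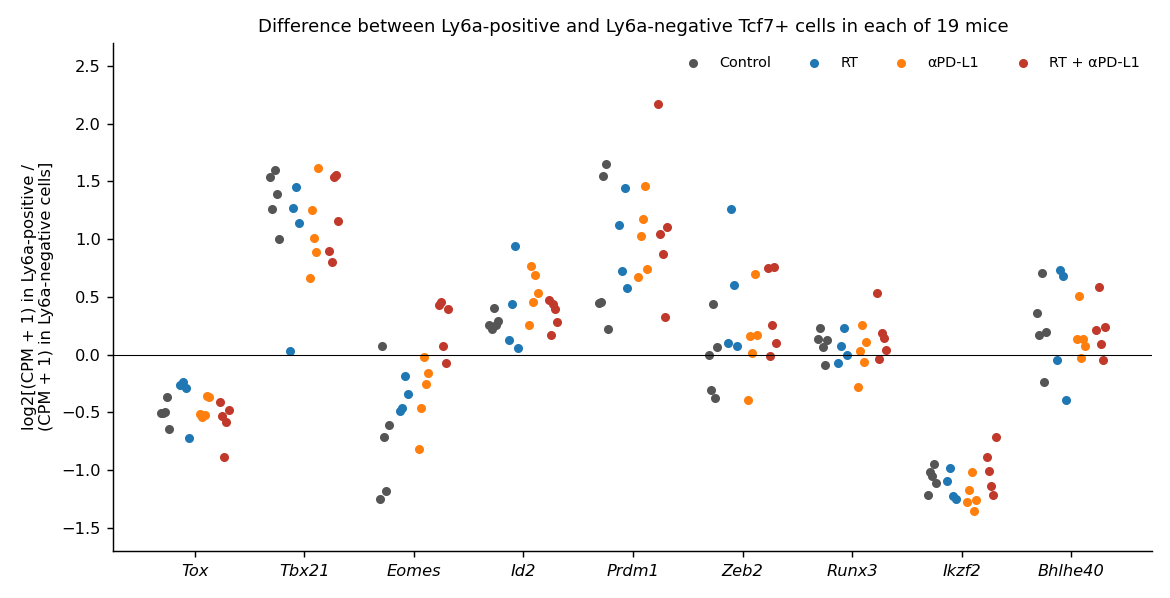
Difference in log2(CPM + 1) between Ly6a+ and Ly6a- Tcf7+ cells of the same mouse (y axis) for each gene (x axis); each point is 1 of 19 mice, colored by treatment. Ikzf2 and Tox were lower and Tbx21, Prdm1 and Id2 higher in Ly6a+ cells of 19 of 19 mice.

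Ikzf2, encoding Helios, had the smallest p of all 11406 genes in this comparison. Its summed level in Ly6a+ cells was 45.0 CPM in the lowest, 52.8 in the median and 78.5 in the highest mouse, against 93.9, 116 and 174 CPM in Ly6a- cells. These ranges did not overlap, but the share of all genes with such ranges was not counted in this split. The log2 difference was −1.11 ± 0.03 (19 mice, edgeR adjusted p = 4.2e-24). By treatment it ranged from −1.19 (αPD-L1) to −1.02 (RT + αPD-L1), with the smallest p of all genes in 3 treatments and rank 2 in RT. The effect in RT + αPD-L1 minus that in Control was 0.05 ± 0.09 and did not pass. Its relative Ikzf4, which encodes Eos, was lower as well (−1.10 ± 0.15).

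Tox was lower in Ly6a+ cells of all 19 mice, with 75.4, 96.8 and 116 CPM (lowest, median, highest) against 113, 132 and 160 CPM. The ranges of the classes met only at their edges. The difference was −0.49 ± 0.03 (edgeR adjusted p = 1.39e-14), from −0.39 ± 0.07 in RT to −0.61 ± 0.06 in RT + αPD-L1. With at least 3 Ly6a UMIs required of Ly6a+ cells, it was −0.68, and that of Ikzf2 was −1.48.

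Tbx21 was 7.07, 20.7 and 40.9 CPM in Ly6a+ cells and 6.19, 8.70 and 18.2 CPM in Ly6a- cells (lowest, median and highest mouse), a difference of 1.35 ± 0.06 (edgeR adjusted p = 2.3e-18). All 19 mice had more in Ly6a+ cells, although the ranges overlapped between mice. Prdm1 went the same way, with 0.936 to 5.23 CPM against 0 to 1.28 CPM (1.64 ± 0.18, adjusted p = 1.82e-09). The E-protein inhibitor Id2 was 157 to 301 CPM against 130 to 189 CPM (0.43 ± 0.04, adjusted p = 2.82e-10), again higher in 19 of 19 mice.

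The remaining members differed less evenly. Zeb2 (0.35 ± 0.10, edgeR adjusted p = 0.00548) and Bhlhe40 (0.29 ± 0.06, adjusted p = 7.33e-05) were higher in Ly6a+ cells of 14 of 19 mice, and Runx3 (0.12 ± 0.03, adjusted p = 0.00127) in 13. Runx3 did not pass once all cells were thinned to 3000 UMIs (0.08, adjusted p = 0.359). Eomes was lower in 14 of 19 mice (−0.20 ± 0.07, adjusted p = 0.0245) and lost its call with HTODemux (adjusted p = 0.088) and when cells without Tcf7 UMIs were added (adjusted p = 0.0536).

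The difference of Eomes took both signs across treatments. That of Zeb2 was smaller than its SE in Control (−0.05 ± 0.21) and 0.32 to 0.70 in the others. Ly6a itself had a mean of 72.9 CPM in Control and 367 CPM in RT + αPD-L1, so the cells in each class depend on the treatment. In Control mice 1 to 5 Eomes was 22.2, 56.3, 27.1, 24.9 and 31.8 CPM in Ly6a+ cells against 54.3, 53.6, 45.0, 57.7 and 49.0 CPM in Ly6a- cells, lower in 4 of 5. In RT + αPD-L1 mice it was 53.6, 73.7, 61.5, 47.0 and 56.2 CPM against 39.5, 53.6, 58.4, 49.5 and 42.5 CPM, higher in 4 of 5. The differences were −0.44 ± 0.12 (edgeR adjusted p = 0.00729) and 0.24 ± 0.11 (adjusted p = 0.122), with −0.31 ± 0.12 in RT and −0.29 ± 0.10 in αPD-L1. The test of RT + αPD-L1 against Control gave 0.68 ± 0.16 with an unadjusted p of 0.00024, rank 6 of 11406, but an adjusted p of 0.456; 0% of all genes passed that test in edgeR, and 726 had an unadjusted p under 0.05.

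In the single treatments, 25 of 36 member tests passed, where the background was 23.6% of genes for Control, 21.3% for RT mice, 23.6% for αPD-L1 and 22.3% for the combination. Ikzf2, Tox, Tbx21, Prdm1 and Id2 passed in all 4. Zeb2 passed in RT, Bhlhe40 in Control and RT, and Eomes in Control and αPD-L1. Runx3 passed in none (adjusted p from 0.0620 to 0.431).

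Ly6a+ cells also came from other clusters than Ly6a- cells, with 24.3% against 10.6% in effector-like cluster 2, 12.2% against 5.4% in S phase-like cluster 5, 9.39% against 1.30% in the interferon-led cluster 7 and 14.7% against 28.7% in cluster 0. The split was therefore repeated inside the 5 clusters that had at least 20 cells of each class in 10 or more mice. Ikzf2 was lower in Ly6a+ cells of all 5, by −0.68 ± 0.06 in cluster 0, −1.11 ± 0.11 in naive-like cluster 1, −0.93 ± 0.09 in effector-like cluster 2, −1.03 ± 0.09 in chronically stimulated-like cluster 3 and −1.02 ± 0.09 in S phase-like cluster 5. The background was 6.94%, 5.4%, 4.9%, 3.52% and 10.9% of genes called in clusters 0, 1, 2, 3 and 5, and 3, 3, 5, 3 and 5 members were called there.

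**Figure D5:**
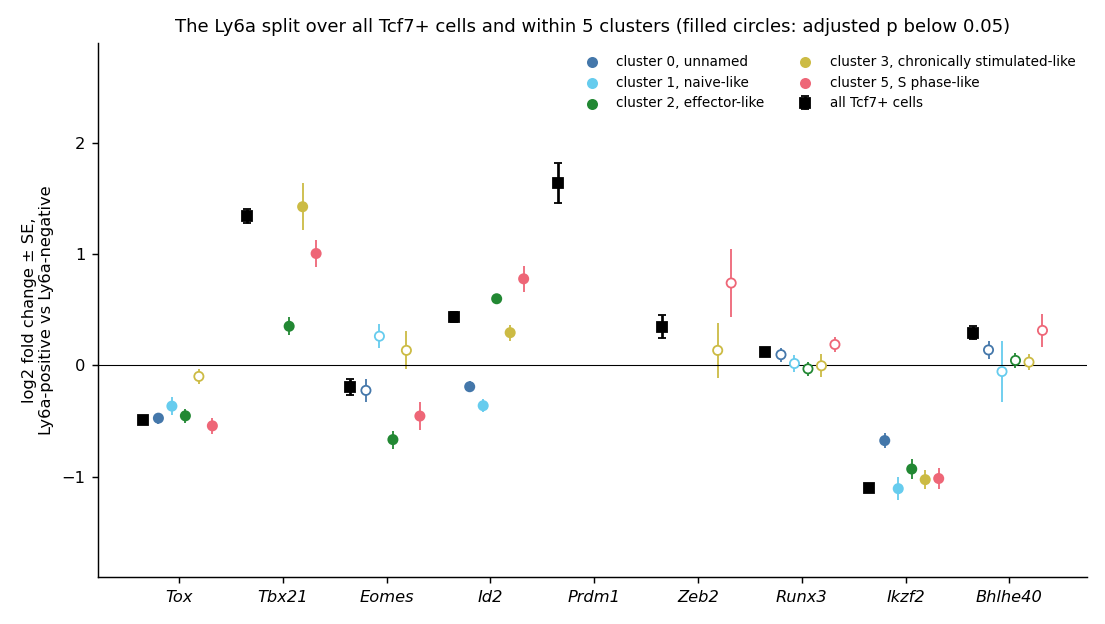
Fitted log2 difference (y axis) of Ly6a+ over Ly6a- Tcf7+ cells with its SE for each gene (x axis), over all Tcf7+ cells (squares, 19 mice) and within clusters 0, 1, 2, 3 and 5 (circles; 15, 15, 19, 13 and 14 mice); filled circles passed the test at an adjusted p under 0.05, and genes too sparse to test have no point. Ikzf2 was below 0 in every cluster, and Id2 was below 0 in clusters 0 and 1 and above 0 in clusters 2, 3 and 5.

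Tox was lower within clusters 0 (−0.47 ± 0.05), 1 (−0.37 ± 0.08), 2 (−0.45 ± 0.06) and 5 (−0.54 ± 0.07) and did not pass in cluster 3 (−0.10 ± 0.06, edgeR adjusted p = 0.512), the cluster with the most Tox outside the one of lowest depth. Tbx21 was higher in clusters 2 (0.35 ± 0.08), 3 (1.43 ± 0.21) and 5 (1.01 ± 0.12) and was too sparse to test in clusters 0 and 1. Id2 took both signs: it was lower in Ly6a+ cells of clusters 0 (−0.19 ± 0.05, adjusted p = 0.00532) and 1 (−0.36 ± 0.06, adjusted p = 5.08e-07) and higher in clusters 2 (0.60 ± 0.04), 3 (0.29 ± 0.07) and 5 (0.78 ± 0.11). Eomes was lower in clusters 2 (−0.67 ± 0.08) and 5 (−0.45 ± 0.12), while Runx3 and Bhlhe40 passed in none of the 5 and Prdm1 was not tested in any.

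Downstream and partner genes were read in the same split, where 23.8% of all genes were higher and 28% lower. Of 17 tested effector genes regulated by T-box factors and RUNX3, 14 were higher and 2 lower in Ly6a+ cells, with a median of 0.94 against −0.03 over all genes (Gzmb 1.92 ± 0.19, Gzma 1.59 ± 0.23, Gzmm 1.41 ± 0.14, Klrk1 1.40 ± 0.10). Of 12 stem and memory factors, 9 were lower, led by Bach2 (−0.77 ± 0.04), Myb (−0.69 ± 0.05) and Lef1 (−0.61 ± 0.03), and E2f2 was higher (0.87 ± 0.06). Of 15 relatives of the members, 8 were lower, including Zeb1 (−0.35 ± 0.04) and the ID2 relative Id3 (−0.23 ± 0.03), and 2 higher, including Runx2 (1.02 ± 0.06). Receptors of exhausted cells went both ways, with 4 of 12 higher (Havcr2 2.02 ± 0.12, Entpd1 0.68 ± 0.20, Pdcd1 0.26 ± 0.07) and 3 lower (Cd200 −0.45 ± 0.05), counts close to the shares over all genes. Il18r1 (1.04 ± 0.05) and Il18rap (0.98 ± 0.07) were among 6 of 16 cytokine-signal genes that were higher. Of the 5 tested regulatory T cell markers, 3 were lower and 0 higher, as were 4 of 4 Ly49 and 4 of 4 NK cell genes, and their part in the Ikzf2 difference was not tested.

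Cells with no Tcf7 UMI were compared with Tcf7+ cells of the same mouse, since loss of TCF-1 marks differentiation. Of 9 members, 8 passed (35.6% of 11700 genes did, 17.7% higher and 17.8% lower): Prdm1, Zeb2, Tbx21, Bhlhe40, Id2 and Runx3 were higher and Ikzf2 and Eomes lower in the 4566 Tcf7-negative cells than in the 33042 Tcf7+ cells. The negatives were shallower, with a median of 4589 UMIs against 6836, and 18.6% of them came from cluster 6 of lowest depth against 4.95%. Scaling by library totals alone moved the median of all genes from 0.00 to 0.11 here, so that differences of that size depend on the scaling.

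Prdm1 was 0 to 15.3 CPM in Tcf7-negative cells (median 4.98) and 0.725 to 1.95 CPM in Tcf7+ cells, higher in 17 of 19 mice (2.18 ± 0.19, edgeR adjusted p = 1.24e-10). Zeb2 was 0 to 35.9 CPM (median 18.3) against 3.39 to 7.69 CPM, higher in 18 of 19 (1.55 ± 0.14, adjusted p = 2.19e-10). Tbx21 (0.98 ± 0.09, 19 of 19 mice), Bhlhe40 (0.66 ± 0.06, 19 of 19) and Id2 (0.44 ± 0.07, 18 of 19) were higher too. These 5 kept their direction and their call in every alternative that tested them, and Prdm1 was too sparse for the fit without the mouse block.

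Runx3, Eomes and Tox depended on thinning or scaling. Runx3 (0.14 ± 0.04, edgeR adjusted p = 0.0111) had no call without cluster 6 (0.06, adjusted p = 0.408) and was −0.04 after thinning (adjusted p = 0.463). Eomes (−0.22 ± 0.06, adjusted p = 0.00476) was 0.10 after thinning (adjusted p = 0.121) and −0.10 by library totals (adjusted p = 0.177). Tox gave −0.01 ± 0.06 (adjusted p = 0.964), 0.11 by library totals (adjusted p = 0.157) and −0.19 after thinning (adjusted p = 2.04e-05), while Ikzf2 stayed lower and called in all of these (−0.30 ± 0.06, adjusted p = 0.000297). By CPM, Ikzf2 was lower in Tcf7-negative cells of 14 of 19 mice, but higher in 3 of 5 Control mice. Tox was higher by CPM in 14 of 19 mice.

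Beside them, 14 of 19 effector genes were higher in Tcf7-negative cells (Klrg1 3.64 ± 0.26, Gzma 3.45 ± 0.26, S1pr5 2.75 ± 0.33, Gzmb 2.75 ± 0.20), as were 9 of 12 receptors of exhausted cells (Havcr2 2.65 ± 0.18, Entpd1 1.82 ± 0.19, Cd244a 1.21 ± 0.26, Pdcd1 0.91 ± 0.07) and 11 of 14 antigen receptor-induced factors (Maf 1.11 ± 0.15, Egr2 0.75 ± 0.12). Of 12 stem and memory factors, 6 were lower (Myb −0.80 ± 0.07, Lef1 −0.38 ± 0.05). Over all genes, 17.7% were higher and 17.8% lower in this split. Markers of other cells were higher as well, 5 of 6 tested dendritic cell, 4 of 6 NK cell and 3 of 6 γδ T cell genes, and their part in the members' differences was not tested.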

How the data were processed

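Raw UMI counts of genes and hashtags, 1 matrix for each of the 4 libraries, were deposited by the authors and made, per the file headers, with Cell Ranger 6.1.2, whereas the methods name another version, on mm10. The 9 members and all gene lists were chosen with earlier results of these data known. Kept barcodes had 500 to 5000 genes, no more than 40000 UMIs and less than 10% mitochondrial counts (43971 of 47820). A hashtag was called positive above the emptiest 0.1 log10 bin between both modes, and barcodes with 1 positive hashtag gave the mouse (39192; 3619 carried several and were removed as doublets, 1160 none). HTODemux (Seurat 5.3.0, quantile 0.99), the method the study names, was run as an alternative on centred log ratios taken within each cell over its hashtags (30671 cells, 99.6% in the same mouse where both called). The study describes such a normalization after its demultiplexing step. HTODemux as run here kept fewer cells than the study kept, so it is not the study's own assignment.

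Clusters came from 2000 variable genes, 20 principal components, 15 neighbors and Leiden resolution 0.6 (scanpy 1.11.5, leidenalg 0.10.2), leaving out the members as well as interferon, MHC-I and Ly6 genes. They were called "like" a cell type when at least 3 written markers stood among their 50 leading genes, and names rest on those markers alone. Counts summed per mouse, or per mouse and class for the splits, were tested with edgeR 4.0.16 (R 4.3.3; TMM, filterByExpr, quasi-likelihood F test, two-sided, prior count 0.125). All 20 mice entered 1 fit. Benjamini-Hochberg adjustment ran over all genes tested, and calls were made at an adjusted p under 0.05. Splits used mice with at least 20 cells in each class (19 mice), with mouse as a block. Fold changes are log2 with SE (from the F statistic; edgeR raises p for genes that vary less than Poisson counts), and p-values measure the spread between mice of 1 library per treatment. Alternatives included DESeq2 1.42.0, RLE factors, no filter on low counts, all assigned cells, cells without Ly6a UMIs, thinning to 3000 UMIs (748 to 1006 shallower cells per treatment left out), fits of 2 treatments, and leaving out each mouse. Scripts were tested on simulated data. All 9 members entered each comparison over 20 mice, but where none passed, values are printed for only some of them. From each other list up to 4 genes are named, called genes first and then the largest changes. A gene that this rule would name is not reported here. Promoter windows came from RefSeq (6 of 9 members matched, 10 windows).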

Additional observations from a re-analysis of the deposited data

Results flagged for a closer look

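Of 36 groups of 5 mice (9 genes in 4 treatments), 6 held a mouse far from the other 4 by Dixon's test at a critical value of 0.71, where chance gives about 1 in 20 groups. The 9 genes were measured in the same mice, so the groups are not independent and the count shows no excess over chance. Control mouse 3 was high for Tbx21 (19.8 CPM) and for Id2 (206 CPM). RT + αPD-L1 mouse 3 was high for Runx3 (102 CPM) and for Bhlhe40 (86.0 CPM). Ikzf2 was high in Control mouse 5 (132 CPM) and in RT mouse 5 (111 CPM).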

How the results depend on the processing

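No paired analysis was possible because hashtag numbers name mice within 1 library and do not tie mice across treatments; in the splits, where mouse was the block, dropping the block (no pairing) called 7 members for Ly6a and 6 for Tcf7 of the 8 tested (Prdm1 was not), so that Eomes alone lost its call in each, with Tox at 0.040 in the latter. Counts of members called that moved by over 1.5 times were, for RT + αPD-L1 against Control (4), 1 with HTODemux, 2 in cells with no Ly6a UMI, 1 when both groups were fitted alone and 0 to 4 when 1 mouse was left out, with 0 without RT + αPD-L1 mouse 3 and 2 without Control mouse 1, 2 or 5 or RT + αPD-L1 mouse 2. The 2 in cells with no Ly6a UMI were Runx3 and Bhlhe40, and Bhlhe40 was not among the 4. Shares of all genes called under these alternatives are not printed beside the counts, which therefore describe the members only. For αPD-L1 against Control (0) the count was 2 in the fit of both groups alone and 0 to 1 with a mouse left out, and for RT + αPD-L1 against RT (0) it was 1 with DESeq2 and 0 to 1 with a mouse left out. Within clusters (3) it was 6 at Leiden resolution 0.3 and 0 without RT + αPD-L1 mouse 3. Inside clusters 0, 1, 2, 3 and 5 the Ly6a split (9) gave 3, 3, 5, 3 and 5. The cause of these shifts was not tested.

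Log2 values that changed sign follow, all close to 0 or outside the threshold in the comparison as reported unless given as called above. For RT + αPD-L1 against Control in cells with no Ly6a UMI they were Eomes −0.041, Id2 −0.0019, Ikzf2 0.079 and Havcr2 −0.47. For RT against Control they were Id2 0.014 and Zeb2 −0.027 with HTODemux, Zeb2 −0.0070 in cells with no Ly6a UMI, Id2 0.028 in all assigned cells and 0.0094 in the fit of both groups, and Tox 0.00094 with DESeq2, 0.00076 with RLE factors, 0.0014 with no filter, 0.013 thinned, 0.0047 in the fit of both groups and 0.0023 without the interferon-led cluster. For αPD-L1 against Control they were Id2 −0.0073 with HTODemux, −0.11 in cells with no Ly6a UMI and −0.0010 thinned, and Zeb2 −0.057 and −0.037 in the latter 2. For RT + αPD-L1 against RT, Eomes was −0.012 with HTODemux, −0.18 in cells with no Ly6a UMI, −0.032 thinned and −0.035 without the interferon-led cluster, and Ikzf2 0.21 in cells with no Ly6a UMI. For RT + αPD-L1 against αPD-L1, Ikzf2 was 0.0089 with HTODemux and 0.17 in cells with no Ly6a UMI, where the excess over both single effects was 0.0067 for Tox and −0.0016 for Tbx21. In the Ly6a split Id2 was −0.19 in cluster 0 and −0.36 in cluster 1, Eomes 0.26 in cluster 1 and 0.14 in cluster 3, Bhlhe40 −0.055 in cluster 1 and Runx3 −0.030 in cluster 2 and −0.0029 in cluster 3. In the Tcf7 split Tox was 0.028 with DESeq2, 0.0066 with HTODemux, 0.016 with RLE factors and 0.11 by library totals, and thinning gave Eomes 0.10 and Runx3 −0.040.

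With 1 mouse left out, ranges that crossed 0 were, for RT + αPD-L1 against Control, Pdcd1 −0.17 to 0.55, for RT against Control, Tox −0.016 to 0.024, Id2 −0.11 to 0.063 and Tbx21 −0.21 to 0.35, and for αPD-L1 against Control, Id2 −0.0038 to 0.10 and Zeb2 −0.0026 to 0.25. For RT + αPD-L1 against RT they were Eomes −0.079 to 0.10, Zeb2 −0.014 to 0.43 and Bhlhe40 −0.23 to 0.071, and against αPD-L1, Prdm1 −0.24 to 0.50, Runx3 −0.031 to 0.11, Ikzf2 −0.082 to 0.027 and Bhlhe40 −0.18 to 0.12. The excess ranged over −0.052 to 0.75 for Tbx21, −0.10 to 0.34 for Zeb2 and −0.12 to 0.037 for Runx3. Without RT + αPD-L1 mouse 3, RT + αPD-L1 against Control was −0.0031 for Tox and −0.020 for Eomes in cluster 3, −0.032 for Runx3 and −0.082 for Id2 in cluster 4, 0.0036 for Tox in cluster 6 and 0.0040 for Ikzf2 in cluster 8. Tox lost its call against Control in 5 of 20 omissions, Tbx21 in 7, Runx3 in 2 and Prdm1 in 1. Prdm1 and Zeb2 had few UMIs per mouse, which limits what their values can show.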
